A study of Mus musculus with 6 samples.

Results

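The forkhead transcription factors are a family of DNA-binding proteins that share the winged-helix forkhead domain, and their genes carry the name Fox, a letter for the subfamily and a number. Members were taken as probe sets with a single annotated gene symbol of that form, from subfamily A to subfamily S. The rule found 69 probe sets for 34 Fox genes, out of 15964 genes with a single symbol on 3 microarray chips. The U74Av2 chip held 32 of them, U74Bv2 held 23 and U74Cv2 held 14. The rule matches gene names. The family, and within it Foxq1, Foxo1 and Foxo3, was chosen by the levels and the Null over WT ratios of these same arrays, so every value below is a description and supports no test.

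The RNA came from mice 1 week old and is labelled as that of spermatogonia, the dividing germ cells at the edge of the testis tubule. The Null group is labelled as a Zfp145 knockout, and the WT group carries no stated alteration. Both groups are on a mixed background of 129sv and C57Bl6. There was 1 array per genotype on each chip. The 6 arrays thus hold no replicates, differences could not be checked against replicate error, and p-values were not computed. The deleted part of the gene, the number of animals, the way the cells were isolated and whether a genotype's 3 arrays share an RNA extract are all missing from the labels. The number of arrays limits the precision.

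Forkhead proteins bind related DNA motifs, and several can open closed chromatin. The FOXO subfamily acts downstream of insulin and growth factor signalling: the kinase AKT phosphorylates these proteins, which then leave the nucleus. In the mouse testis, FOXO1 marks gonocytes and undifferentiated spermatogonia and is needed for stem cell maintenance, while FOXM1 drives genes of the G2 and M phases in dividing cells.

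Values are intensities as the authors deposited them. Level is the percentile of a probe set's mean of both arrays among all probe sets of its chip. The log2 ratio of Null over WT was taken after scaling and after raising values under a floor, the 40th percentile of the chip, to that floor. For U74Av2 this was 98.3, for U74Bv2 165 and for U74Cv2 124. A probe set above the floor on both arrays is called measured here. A probe set at the floor on a single array has a bound in place of a fold, and with both arrays at the floor no fold is given. The spread used as a yardstick is the typical distance between the ratios of probe sets that share a gene and a chip, by level class. It ran from 0.15 to 0.32 on U74Av2, from 0.24 to 0.35 on U74Bv2 and from 0.30 to 0.51 on U74Cv2.

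Zbtb16, the current name of Zfp145 and a BTB and zinc finger repressor, was lower in the Null arrays. On U74Av2 a probe set read 158.1 in Null and 770.2 in WT, a log2 ratio of -2.29, and on U74Cv2 another read 510.8 in Null and 1156.8 in WT, a log2 ratio of -1.20. A further one on U74Av2 was at the floor, with 16.7 in Null and 50.6 in WT. Markers of several cell types had signal in the RNA, with each gene taken at its brightest probe set. Among markers with a probe set, signal exceeded the floor on 1 or both arrays for 10 of 11 spermatogonial and 12 of 12 Sertoli cell markers. It did so for 8 of 10 peritubular and mesenchymal, 7 of 7 macrophage, 5 of 6 Leydig cell and 5 of 6 endothelial markers. The counts were 4 of 5 for ciliated cell, 3 of 3 for erythroid and 1 of 4 for T cell markers. By the same measure 12439 of all 15964 genes exceeded the floor, so these counts alone do not show which cell types were present. Fewer cells of a type and less RNA per cell cannot be told apart in such RNA.

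Of the 69 Fox probe sets 35 were measured, 6 gave a bound and 28 were at the floor on both arrays. On U74Av2 10 of 32 were measured (31.2%, against 57.0% of all probe sets of that chip). On U74Bv2 15 of 23 were measured (65.2%, against 55.7%), and on U74Cv2 10 of 14 (71.4%, against 52.9%). The measured probe sets belonged to 19 genes, of which 9 had 2 or more. Another 2 genes, Foxj1 and Foxn2, had only a bound. The 13 genes at the floor in every probe set were Foxa1, Foxa2, Foxb1, Foxb2, Foxc1, Foxd1, Foxd3, Foxd4, Foxf2, Foxh1, Foxi1, Foxn1 and Foxp2. Many of these are known from early embryos or from tissues other than the testis, such as Foxa1 and Foxa2 in endoderm, Foxd3 in the neural crest, Foxi1 in ion-transporting epithelia and Foxn1 in the thymus. A further 10 genes named by RefSeq with such symbols had no probe set under the rule and were not analysed here.

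**Figure D1:**
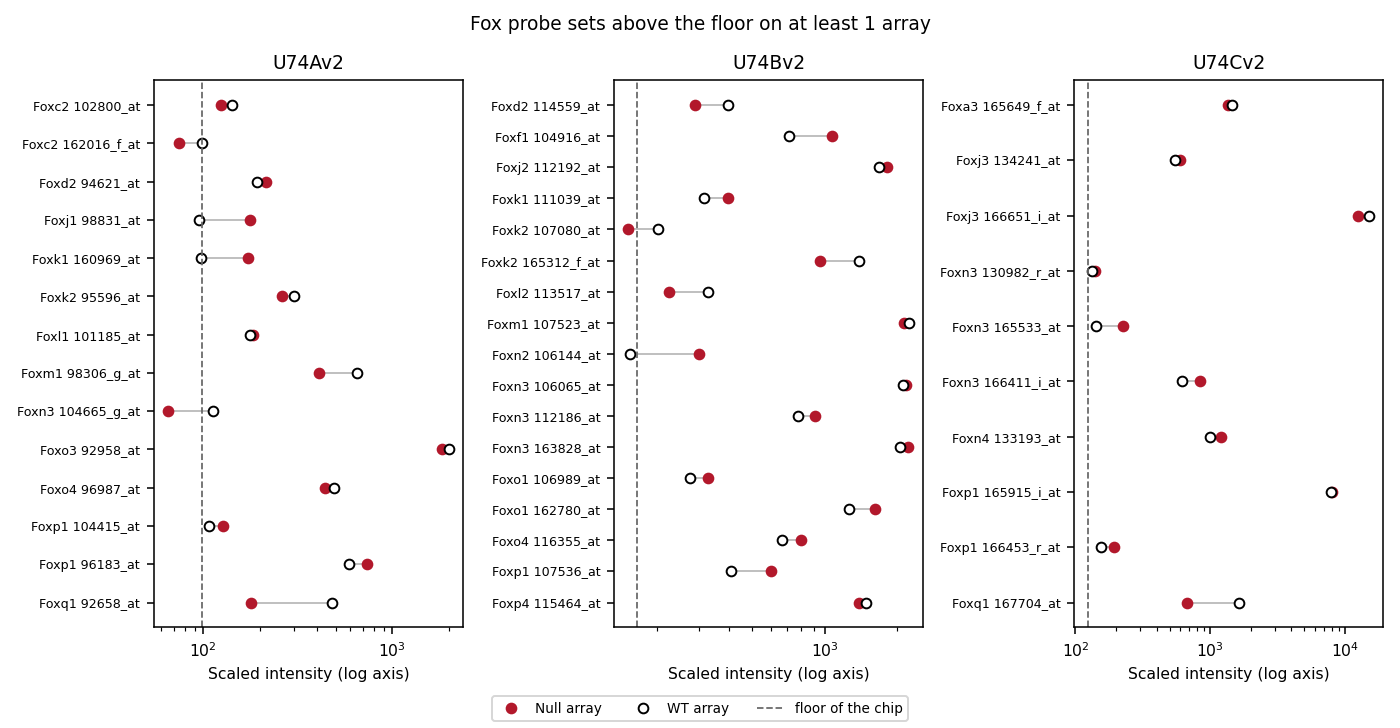
Scaled intensity on a log axis of the 41 Fox probe sets above the floor (dashed line) on at least 1 array, by chip, with filled points for the Null array and open points for the WT array, 1 array each. Foxq1 shows the widest gap on U74Av2 and on U74Cv2 among the probe sets above the floor on both arrays, with Null to the left of WT.

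At least 2-fold differences were found for Foxq1 alone, a forkhead gene mutated in satin mice, whose hair shafts are abnormal. On U74Av2 its probe set 92658_at read 180.8 in Null and 480.5 in WT, at the 62.1st level percentile, a log2 ratio of -1.42, which is 2.67-fold lower. On U74Cv2 its probe set 167704_at read 688.9 in Null and 1631.8 in WT, at the 87.1st percentile, a log2 ratio of -1.27, which is 2.41-fold lower. Both probe sets of the gene were thus lower in Null, by similar amounts, on chips that carry different probes. The first ratio was the 7th lowest of 7082 measured probe sets on U74Av2 and 6.91 times the spread at its level. It lies at the edge of its level class, and the class below has a spread of 0.32. The second was the 130th lowest of 6280 on U74Cv2 and 4.16 times the spread.

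Shares here are of probe sets with a ratio or a bound, for Fox and for all. Fox probe sets at least 2-fold lower in Null were 1 of 14 for U74Av2, 0 of 17 for U74Bv2 and 1 of 10 for U74Cv2. Of all such probe sets 0.575%, 1% and 5.46% were. No Fox probe set was at least 2-fold higher, against 0.332%, 0.815% and 5.68% of all. Differences of at least 1.5-fold in either direction, bounds included, were found in 4 of 14, 2 of 17 and 2 of 10 Fox probe sets, against 7.34%, 11.4% and 27.5% of all. Ratios of the size seen for Foxq1 were thus far more common on U74Cv2 than on U74Av2. Across chips, 2656 genes had measured probe sets on 2 or more chips. At least 2-fold lower signal on 2 chips was found for 2 of them, Foxq1 and Zbtb16 itself, and at least 2-fold higher signal on 2 chips for 0. Because Foxq1 was chosen by these same ratios, its place in this count is a description. The chips may share an RNA extract, so they are no second observation of the genotypes. With the floor raised to the 60th percentile, the Null array lay under it on U74Av2 and the Foxq1 ratio there became a bound of -0.70.

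Foxq1 lies in a run of forkhead genes, next to Foxf2 and Foxc1, by the gene order in RefSeq. Foxf2, a gene of mesenchyme, read 3.5 in Null and 4.4 in WT on U74Av2, and Foxc1, a gene of mesoderm and the eye, 1.6 in Null and 2.8 in WT. Both were at the floor and give no fold. On the side of Foxc1 the next gene, Gmds, an enzyme of GDP-fucose synthesis, stood at 0.21 in its measured probe set, while another read 126.1 in Null, at the floor, and 197.3 in WT, a bound of -0.26. On the other side the next gene, Hus1b, had no probe set. Beyond it Exoc2, an exocyst subunit, stood at 0.62 and -0.16 in its 2 probe sets on U74Bv2. Irf4, the gene after that, was at the floor on U74Av2, with 9.5 in Null and 6.8 in WT. Among these neighbours only Gmds and Exoc2 had measured probe sets, and none of those was 2-fold lower. The genes directly beside Foxq1 gave no ratio.

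**Figure D2:**
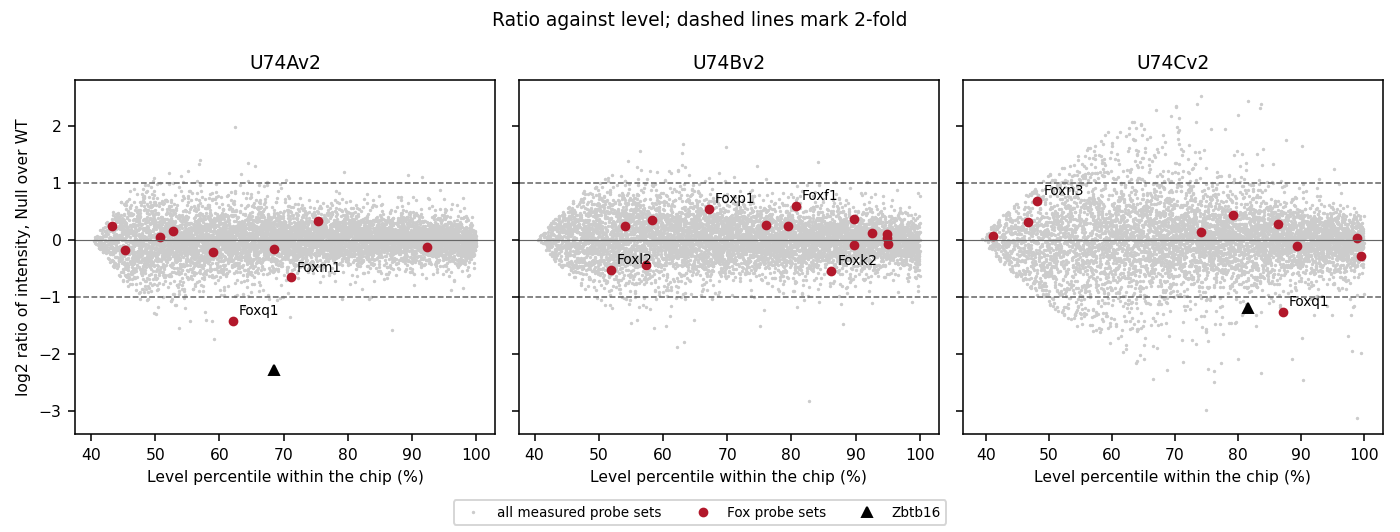
Log2 ratio of Null over WT against level percentile for measured probe sets of each chip, with all probe sets in grey, Fox probe sets as filled circles and Zbtb16 as triangles. The Fox points lie inside the 2-fold lines except Foxq1, at -1.42 on U74Av2 and -1.27 on U74Cv2.

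The FOXO genes were among the brighter members and differed little between the arrays. Foxo1 had 3 probe sets, all on U74Bv2. The brightest, at the 89.8th percentile, read 1630.8 in Null and 1264.7 in WT, a log2 ratio of 0.36. Another read 327.9 in Null and 275.4 in WT, a log2 ratio of 0.25, and the remaining one, at 131.2 in Null and 27.1 in WT, was at the floor. Both measured ratios of Foxo1 were above 0, at 1.48 and 0.70 times the spread at their levels.

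Foxo3, known in the mouse ovary for holding primordial follicles at rest, was bright on U74Av2. It read 1832.3 in Null and 1987.9 in WT, at the 92.3rd percentile, a log2 ratio of -0.13. Its probe set on U74Bv2 read 46.7 in Null and 18.9 in WT and was at the floor, so the chips give no second ratio for this gene. Foxo4, the FOXO gene on the X chromosome, went different ways. It read 440.8 in Null and 487.9 in WT on U74Av2, a log2 ratio of -0.16, but 796.3 in Null and 661.9 in WT on U74Bv2, a log2 ratio of 0.26. Both Foxo4 ratios and that of Foxo3 were smaller than the spread at their levels.

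Markers of spermatogonia, the cells that FOXO1 marks, were mixed. Of the 10 above the floor 7 were above 0 and 3 below, with a median log2 ratio of 0.24. The 2 at least 2-fold different were lower in Null, the undifferentiated germ cell genes Sall4, at -1.32, and Pou5f1, which read 83.8 in Null, at the floor, and 283.4 in WT, at least 2.28-fold lower. The other measured probe sets of these genes gave 0.27 and 0.63 for Sall4 and 0.17 for Pou5f1. Kit, a receptor of differentiating spermatogonia, is also in the list, at 0.31, and so is Stra8, at -0.18. Gfra1 stood at 0.22, and its other measured probe set gave -0.22. The summed scaled intensity of the markers was 22753 in Null and 20477 in WT. Such sums add values of different chips and weigh toward the brightest genes. Ret was at the floor on both arrays of its chip. Uchl1, a ubiquitin hydrolase, and Dazl, a germ cell RNA-binding protein, were the brightest, at the 98.5th and 98.1st percentiles of U74Av2. Dazl read 6372.8 in Null and 4287.3 in WT, a log2 ratio of 0.56, and its other measured probe set gave -0.32. Sertoli markers had 10 of 12 below 0, a median of -0.17 and a sum of 48570 in Null and 54459 in WT, with Rhox5 at -1.04 and Tsx at -1.02. Leydig markers had 5 of 5 below 0, a median of -0.38 and a sum of 4230 in Null and 5536 in WT, with Insl3 at the floor. One of these, Star, stood at -0.17, and its other measured probe sets gave -0.22 and 0.27. Macrophage markers had 5 of 7 below 0, erythroid markers 3 of 3 and endothelial markers 2 of 5. Over all genes 6400 of 12439 were below 0. The part of these markers in the Foxo1 values was not tested.

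Foxm1, the cell cycle member, was bright on U74Bv2, where it read 2149.4 in Null and 2247.6 in WT at the 95.1st percentile. The log2 ratio there was -0.07. On U74Av2 its probe set 98306_g_at read 413.1 in Null and 649.5 in WT, a log2 ratio of -0.66, which was 3.22 times the spread. A further probe set designed on the same source sequence, 98305_at, was at the floor with 20.9 in Null and 13.6 in WT. The 2 measured Foxm1 ratios had the same sign, and the one on U74Bv2 was smaller than the spread there.

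Foxp1, Foxp2 and Foxp4 encode repressors that pair through a leucine zipper. Foxp1 had 6 probe sets over all 3 chips, 5 of them measured. On U74Av2 it read 740.7 in Null and 588.5 in WT, a log2 ratio of 0.32, and in a dimmer probe set 127.1 in Null and 106.5 in WT, a log2 ratio of 0.25. On U74Bv2 it read 599 in Null and 409 in WT, a log2 ratio of 0.55. On U74Cv2 the ratios were 0.03, from 8173.5 in Null and 7886.4 in WT, and 0.31, from 194.9 in Null and 154.2 in WT. These probe sets carry the suffixes i and r, in that order, which mark designs other than the plain one. All 5 measured ratios were above 0, and none reached 2 times the spread at its level. Foxp4 read 1398.7 in Null and 1489.5 in WT on U74Bv2, a log2 ratio of -0.10, and Foxp2, a gene best known from the brain, was at the floor on U74Bv2 and U74Cv2.

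Foxn3, a repressor first found as a suppressor of checkpoint mutations in yeast, had 9 probe sets, the most of any member. On U74Bv2 its brightest probe set read 2182.2 in Null and 2128 in WT, a log2 ratio of 0.03, and 2 others gave 0.11 and 0.23. On U74Cv2 the ratios were 0.07 in a probe set of suffix r, 0.43 in one of suffix i and 0.68 in a plain one. The last of these came from 230 in Null and 140.8 in WT, where the spread was 0.51. All 6 measured ratios were above 0, but a probe set on U74Av2 went the other way, with 65.3 in Null, at the floor, and 113.1 in WT, at least 1.15-fold lower. The remaining 2 were at the floor.

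Foxn2, a close relative of Foxn3, was at the floor in both probe sets on U74Av2. On U74Bv2 it read 300.8 in Null and 155.1 in WT, at the floor, so at least 1.81-fold higher. Foxn4, known from retinal progenitors, read 1225.9 in Null and 995 in WT on U74Cv2, a log2 ratio of 0.28.

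Foxk1 and Foxk2 encode repressors of autophagy genes. Foxk2 was lower in Null in both measured probe sets, at -0.21 on U74Av2, from 262.6 in Null and 302 in WT, and at -0.54 on U74Bv2, from 957.3 in Null and 1388.5 in WT. The ratio on U74Bv2 was 2.22 times the spread, in a probe set whose suffix f marks a design that can match a family of transcripts. Another probe set, at 152.1 in Null, at the floor, and 201.9 in WT, was at least 1.22-fold lower. Foxk1 went upward, at 0.34 on U74Bv2, from 396.5 in Null and 313 in WT. On U74Av2 it read 174 in Null and 97.5 in WT, at the floor, so at least 1.76-fold higher.

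The J subfamily includes Foxj1, the master regulator of motile cilia. It read 177 in Null and 94.4 in WT on U74Av2, at the floor, so at least 1.79-fold higher. The genes of ciliated cells did not share one direction. Of 7 such markers 5 had a probe set and 4 of these a ratio or a bound, 1 with a ratio above 0 and 3 below. Hydin stood at 0.59, while Tekt2 read 91.8 in Null, at the floor, and 439.3 in WT, at least 3.54-fold lower. Their summed intensity was 1579 in Null and 1938 in WT, Tekt1 was at the floor on both arrays, and their part in the Foxj1 value was not tested. Foxj2, one of the brightest members on U74Bv2, read 1828.9 in Null and 1684.9 in WT, a log2 ratio of 0.11. Foxj3, a relative of Foxj2, had the highest level of any Fox probe set, the 99.6th percentile of U74Cv2, in a probe set of suffix i. It read 12589.6 in Null and 15106.3 in WT there, a log2 ratio of -0.29. Its plain probe set on that chip, at the 74.1st percentile, read 604 in Null and 543.1 in WT, a log2 ratio of 0.13.

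Members known from mesenchyme and gonadal soma were mostly dim. Foxf1, a target of hedgehog signalling in mesenchyme, was the brightest of these. It read 1077.8 in Null and 709.3 in WT on U74Bv2, a log2 ratio of 0.60 and 2.06 times the spread, and was at the floor on U74Av2. Of 10 peritubular and mesenchymal markers 8 had a ratio or a bound, 4 above 0 and 4 below, with a median of 0.00. The collagen genes Col1a1, at 0.61, and Col3a1, at 0.54, were the highest of these. Their other probe sets gave 0.54 for Col1a1 and 0.53 and 0.42 for Col3a1. The rest of the markers with a ratio or a bound ran only from -0.11 for Acta2 to 0.24 for Tagln. A dimmer Acta2 probe set, on U74Cv2, gave 0.67. The sum of the markers was 14512 in Null and 12109 in WT. Col1a1, at 4733.2 in Null and 3075 in WT, and Col3a1, at 3254.1 and 2221.1, weigh heavily in it. Cnn1 and Des were at the floor, and the part of these markers in the Foxf1 value was not tested.

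Foxl2, which maintains ovarian granulosa cells, read 226 in Null and 326 in WT, a log2 ratio of -0.53 and 1.51 times the spread. Foxl1, a gene of gut mesenchyme, read 183.4 in Null and 176.2 in WT, a log2 ratio of 0.05. Foxc2, a gene of mesoderm and lymphatic vessels, stood at -0.19 on U74Av2, from 124.9 in Null and 141.2 in WT. Its second probe set there read 75.1 in Null and 98.8 in WT, at the edge of the floor, and gives no fold. Foxd2 disagreed between chips, at 0.16 on U74Av2, from 214.6 in Null and 191.4 in WT, and at -0.45 on U74Bv2, from 289.3 in Null and 394.6 in WT. Foxa3, of the endodermal subfamily, was at the floor on U74Av2 but at the 89.4th percentile on U74Cv2, with 1377.8 in Null and 1459.3 in WT, in another probe set of suffix f and at a log2 ratio of -0.11.

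Levels agreed poorly between probe sets of a gene. Foxm1 lay at the 13.3rd percentile in 1 probe set and at the 95.1st in another. Foxo3 spanned the 12.1st to the 92.3rd percentile, Foxn3 the 23.9th to the 94.9th, Foxp1 the 33.8th to the 99.0th and Foxa3 the 23.9th to the 89.4th. Foxo4, at 68.5 and 76.1, and Foxd2, at 52.8 and 57.3, were closer. A gene at the floor in a single probe set is therefore not shown to lack its transcript.

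Directions agreed for 6 of the 9 genes with 2 or more measured probe sets. Foxo1, Foxn3 and Foxp1 had every measured ratio above 0, and Foxk2, Foxm1 and Foxq1 every one below. Foxd2, Foxj3 and Foxo4 were mixed. Over the chips as a whole, 46.2% of the 3997 genes with 2 or more measured probe sets had all ratios on one side of 0. Among the 7 Fox genes with exactly 2, 4 went one way, against 55.1% of all 2717 such genes. For genes with 5 measured probe sets, as Foxp1 has, all ratios were above 0 in 15 of 88, and for those with 6, as Foxn3 has, in 3 of 24.

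Counted in pairs of measured probe sets, the signs were the same in 29 of 32 Fox pairs (90.6%), against 54.7% of 8371 pairs over all genes. Of these 32 pairs 25 come from Foxn3 and Foxp1, and pairs of a gene are not independent. Without those genes 4 of 7 Fox pairs had the same sign (57.1%). Between chips, 20 of 22 pairs agreed, and without Foxn3 and Foxp1 3 of 5 did. With the floor at the 20th percentile the share over all Fox pairs was 67.8%, and with no floor it was 60%.

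**Figure D3:**
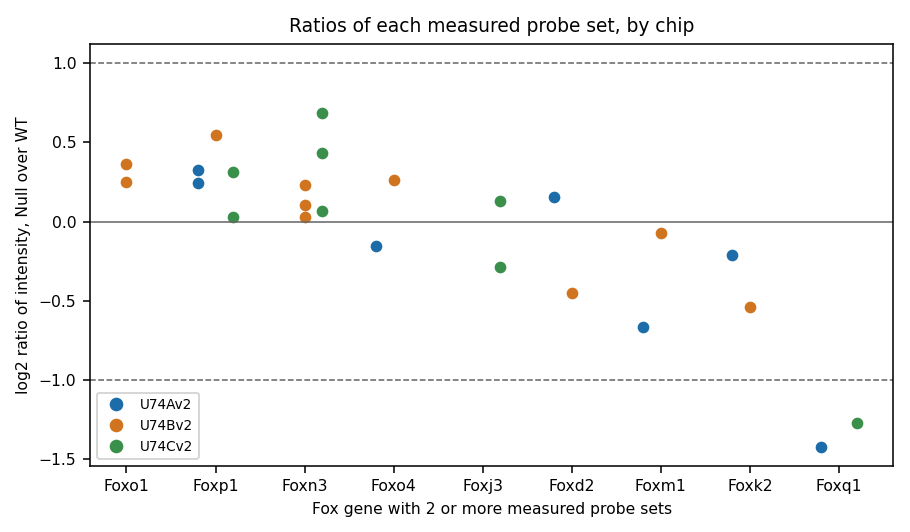
Log2 ratio of Null over WT of each measured probe set for the 9 Fox genes with 2 or more, ordered by mean ratio and coloured by chip, with dashed lines at 2-fold. Foxq1 lies below -1 on both chips, Foxo1, Foxp1 and Foxn3 lie above 0 throughout, and Foxo4, Foxj3 and Foxd2 fall on both sides of 0.

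Over the family as a whole the ratios lay near 0. The measured Fox probe sets had a median log2 ratio of -0.14 for U74Av2, 0.11 for U74Bv2 and 0.10 for U74Cv2, against -0.00, 0.00 and -0.00 for all measured probe sets. Ratios were above 0 for 21 of the 35 (60%, against 49.8% of all measured probe sets) and below 0 for 14. Of these 21 ratios Foxn3 gave 6 and Foxp1 gave 5, and probe sets of a gene are not independent. The share above 0 is thus no count of genes. Differences under 1.5-fold were found in 30 of the 35 (85.7%), against 87.6% of all 20277 measured probe sets. Ratios of more than 2 times the spread were found in 5 of 35 (14.3%), against 11.5% of all. These were the 2 of Foxq1 and 1 each of Foxf1, Foxk2 and Foxm1.

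Genes that act with or below these factors were taken as 3 lists, with each gene represented by its brightest probe set. Of the 12439 genes above the floor on 1 or both arrays, 1.46% were at least 2-fold higher and 1.71% at least 2-fold lower in Null. Their median was -0.01. The FOXO pathway list holds the kinases, phosphatases, 14-3-3 proteins and cofactors that set FOXO activity. Of its 35 genes 33 had a probe set, and 30 of these were above the floor. None was 2-fold different in its brightest probe set (1 was higher with the floor at the 20th percentile or with none). A dimmer Gsk3b probe set on U74Bv2 read 468.3 in Null and 222.6 in WT, a log2 ratio of 1.07. Gsk3b stood at -0.34 in its brightest probe set and at 0.24 and -0.28 in its other measured ones. The median of the list was -0.03, with 13 ratios above 0 and 17 below. The sign of this median was not stable, since it was 0.06 with the mean over each gene's probe sets and 0.03 without U74Cv2. Its brightest members were Ywhaq, a 14-3-3 protein, at 0.30, and the insulin-like growth factor receptor Igf1r, at -0.36, whose other probe sets gave 0.45, 0.49 and 0.19.

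The FOXO target list held 39 genes, of which 38 had a probe set. Of these 31 were above the floor, with 12 ratios above 0 and 19 below and a median of -0.06. Ccnd2, cyclin D2, which FOXO proteins are known to repress, read 2412.9 in Null and 1122.9 in WT, a log2 ratio of 1.09. Sall4, a zinc finger gene of undifferentiated spermatogonia, read 1042.1 in Null and 2568.1 in WT on U74Cv2, a log2 ratio of -1.32. Its other measured probe sets gave 0.27 and 0.63, so the Sall4 value rests on 1 probe set, and without U74Cv2 no member was 2-fold lower. These were the 2 members at least 2-fold different, 1 in each direction. With the floor at the 20th percentile 3 were lower, and with no floor 3 were lower and 2 higher. Lhx1 was at the floor in Null, with 57.7 in Null and 165 in WT, at least 1.68-fold lower.

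The FOXM1 target list, genes of mitosis, held 25 genes, of which 23 had a probe set. All 23 were above the floor, with 15 ratios above 0 and 8 below, and none 2-fold different. The median was 0.05. Its brightest members were the kinetochore gene Cenpf, at 0.03 from 3824 in Null and 3726.9 in WT, and the checkpoint activator Cdc20, at 0.09 from 4185.8 in Null and 3902.2 in WT. Both measured Foxm1 ratios lay below 0, at -0.66 and -0.07, the latter smaller than the spread at its level. Their relation to the values of this list was not tested.

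**Figure D4:**
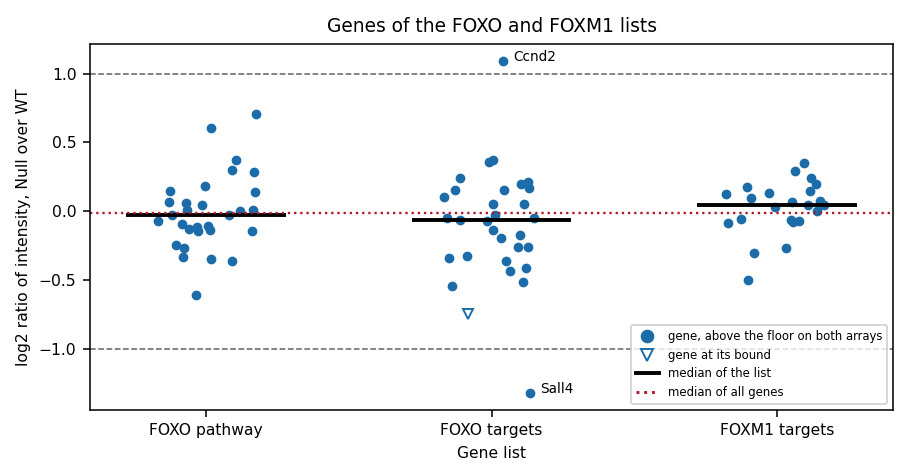
Log2 ratio of Null over WT of each gene of the FOXO pathway, FOXO target and FOXM1 target lists, with black bars at the list medians of -0.03, -0.06 and 0.05 and a dotted line at the median of all genes, -0.01. Ccnd2 at 1.09 and Sall4 at -1.32 are the points outside the dashed 2-fold lines, and the open triangle is Lhx1 at its bound.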

How the data were processed

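Values were the deposited linear intensities per probe set, whose trimmed mean was near 500 on every array (500.3 on both U74Av2 arrays). Which software made them, and with what scaling and background correction, is not given in the sources used here. Groups came from sample titles. Gene names came from a table of GEO's platform annotation, and of the probe sets with 1 symbol 10817 of 10833, 10550 of 10581 and 7677 of 7717 were matched by Entrez identifier to RefSeq (GRCm38.p6). No symbol changed.

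Each chip was processed alone. Its 66 controls were left out. Null values were scaled by the median ratio to WT over probe sets above the 50th percentile of mean rank, a log2 shift of 0.01, 0.00 and 0.02. The floor at the 40th percentile was then set and log2 taken. Spread was the median absolute difference between the ratios of a gene's probe sets, scaled to a standard deviation of a single ratio, in 3 level classes. Members and lists were chosen with earlier results of these data known. Genes were named by rule: Foxq1, Foxo1 and Foxo3, members with several measured probe sets, at least 2-fold different or at a bound, the 5 brightest per chip, and from each list up to 4 that differ 2-fold or else the 2 brightest. Foxc2, Foxf1, Foxl1, Foxl2, Foxp4, Lhx1, Gsk3b, Kit, Stra8, Gfra1, Acta2, Tagln, Col3a1 and the neighbours of Foxq1 were named after their values were seen. The calculation was also tested on simulated data. Python 3.11.15, numpy 2.4.6, pandas 2.3.3, statsmodels 0.14.6 and matplotlib 3.10.9 were used. Alternatives were other scalings, floors, thresholds and choices of probe sets.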

Additional observations from a re-analysis of the deposited data

How the results depend on the processing

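The number of Fox probe sets at least 2-fold different, 1 on U74Av2, 0 on U74Bv2 and 1 on U74Cv2, moved with the threshold and the floor. At 3-fold it was 0 on each chip, and at 1.5-fold it was 4, 2 and 2. A floor at the 20th percentile gave 2, 1 and 3, no floor gave 4, 4 and 3, and a floor at the 60th percentile gave 0 on U74Av2. With no floor the Fox counts were out of 32, 23 and 14 probe sets. Counts over all probe sets moved too. Those at least 2-fold lower went from 45, 80 and 435 to 1318, 1070 and 1636 with no floor. Those at least 2-fold higher went from 26, 65 and 452 to 570, 1075 and 1376, out of 12422, 12411 and 11868. The share of Fox pairs with the same sign was 67.8% under the floor of the 20th percentile and 60% without a floor. Lower floors admit dim probe sets. The Fox counts kept their values with the values as deposited, after quantile normalization, after loess and with plain probe sets only. The median of the FOXO pathway list changed sign with plain probe sets only (0.01), without U74Cv2 (0.03) and with the mean over probe sets (0.06). The FOXO target members at least 2-fold lower, 1 in all, were 3 with the floor at the 20th percentile or with none, and 0 without U74Cv2, with plain probe sets or with the mean over probe sets. Every Fox ratio or bound kept its sign in every setting that gave it a value. Those of Foxq1 ran from -1.42 to -0.70 on U74Av2, the last as a bound, and from -1.27 to -1.24 on U74Cv2. No paired analysis was possible because each genotype had 1 array per chip. Dim signal limits the 28 probe sets at the floor, and without replicates no ratio can be set against the spread between animals.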
